A study of Mus musculus with 22 samples.

Results

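The open chromatin of the corticosteroid receptor genes Nr3c1 and Nr3c2 was described in hippocampus and frontal cortex of mice, element by element, between the tissues and after an inflammatory challenge. The members were the peaks whose summit lay in the GRCm38 body of either gene or within 50 kb of it. In all, 2741 of the 6549262 deposited peaks met that rule, 1073 at Nr3c1 and 1668 at Nr3c2. Each library held 36 to 61 of them at Nr3c1 and 47 to 108 at Nr3c2. Peaks of different libraries were set side by side in common windows reaching 250 bp to either side of a summit, of which 92 lay at Nr3c1 and 199 at Nr3c2, of 563286 windows in the genome.

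The libraries came from OMNI-ATAC-seq, in which a transposase places adapters into accessible DNA of nuclei from frozen tissue. All 11 animals were wild type adult C57BL/6J males in a model of Gulf War Illness. Every animal, the saline animals included, had taken corticosterone (CORT), the main rodent glucocorticoid, in drinking water for 7 days, diisopropyl fluorophosphate (DFP), an inhibitor of acetylcholinesterase, on day 8, and further intermittent corticosterone over 5 weeks. Each animal gave 1 hippocampus and 1 frontal cortex library. In either tissue there were 3 libraries 6 h after an injection of lipopolysaccharide (LPS), which comes from the outer membrane of bacteria and sets off inflammation, 3 at 12 h, 3 at 24 h, and 2 from saline animals collected at 6 h. No group without CORT and DFP was analysed here, and 1 further baseline animal had been left out by the authors for low read depth. Because saline animals were collected at 6 h only, LPS and time since injection cannot be told apart at 12 and 24 h. All 6 comparisons of LPS with saline used the same 2 saline animals.

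Nr3c1 encodes the glucocorticoid receptor and Nr3c2 the mineralocorticoid receptor, ligand-activated transcription factors that both bind corticosterone. In rodent brain the mineralocorticoid receptor has the higher affinity for corticosterone and is best known from hippocampal neurons, whereas the glucocorticoid receptor is found in most brain cells and takes part in the feedback that ends a stress response. Open chromatin at a gene marks promoters, enhancers and other regulatory elements, and it is not a measure of the gene's RNA.

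The promoter of Nr3c2 carried 1 of the 22 windows of that locus that had a peak in every library, and its sequence is shown because that window holds an annotated transcript start open in both tissues. Nr3c2 lies on chromosome 8, plus strand, from 76898083 to 77245012 (GRCm38, 346.9 kb, 5 RefSeq transcripts). The promoter in the RefSeq table (build GRCm38.p6, chr8:76902080-76902379, plus strand) holds the 250 bases before and the 50 bases from a transcript start at 76902330, which is 4247 bases inside the 5′ end of the gene body. It is printed 5′ to 3′ in lower case, with CCAAT and GC boxes in capitals on whichever strand they were found.
Nr3c2 promoter: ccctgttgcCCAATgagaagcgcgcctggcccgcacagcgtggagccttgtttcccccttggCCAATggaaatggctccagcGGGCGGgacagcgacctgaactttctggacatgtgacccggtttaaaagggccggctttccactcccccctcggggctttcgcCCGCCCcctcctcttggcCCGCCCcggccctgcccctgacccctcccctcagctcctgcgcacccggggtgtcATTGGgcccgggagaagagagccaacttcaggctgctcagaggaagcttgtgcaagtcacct
Both strands were searched for exact letters. The CCAAT box (CCAAT) was found 3 times, with its leftmost base at -241, -188 and -12 from the start, and 37.4% of 32851 RefSeq promoters of the same length hold it. The GC box (GGGCGG) was found 3 times, at -168, -85 and -67, and 35.7% of promoters hold it. None of the matches overlapped another. The TATA box (TATAAA, in 13.6% of promoters), the glucocorticoid response element hexamer (TGTTCT, in 19.0%) and the cAMP response element (TGACGTCA, in 1.79%) had no match in these 300 bases. The G and C content was 65.7%, against a median of 52.7% over all promoters, and 83.0% of promoters lay below it. There were 17 CG dinucleotides, against a median of 7.

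The window at this promoter (76901873 to 76902373) had a peak in 11 of 11 hippocampus and 11 of 11 frontal cortex libraries. The fold ratio over background that the authors deposited with each peak is that peak's own value within its library, and it is given here as a description only. At the promoter it ran from 4.64 to 6.03 in hippocampus (median 5.55) and from 6.22 to 7.85 in frontal cortex (median 6.78). The peaks were 699 to 1146 bp wide and ranked within the strongest 6.08% of peaks of every library. Some 3 kb upstream, nearest the annotated 5′ end of the gene body, a pair of windows 1.1 and 1.7 kb into the body also had a peak in all 22 libraries, and these overlap the lncRNA gene Gm10649.

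At both loci the tissues shared a set of mostly strong elements and differed at other elements that were mostly weaker. The lists hold only peaks past a lower limit of strength, so weak peaks are more easily missing from a library. The contrast in strength is thus partly given in advance. At Nr3c2, 29 windows were more often open in hippocampus and 9 more often in frontal cortex, of 123 tested. At Nr3c1 the balance was the other way, with 5 windows more often open in hippocampus and 12 in frontal cortex, of 51 tested. Windows with a peak in 2 to 20 of the 22 libraries were tested by Fisher's exact test, 11 libraries against 11, two-sided, with Benjamini-Hochberg adjustment over the genome at 0.05. Over the genome 327299 windows were tested, and the shares called were 18.3% for hippocampus and 12.2% for frontal cortex. With the animal, which gave both tissues, as the replicate block (exact sign test over animals), 17 windows towards hippocampus and 5 towards frontal cortex remained called at Nr3c2, and 3 and 8 at Nr3c1. Of the 327299 windows tested over the genome, the sign test called 41773 towards hippocampus and 26630 towards frontal cortex. Under it, the share of tested Nr3c2 windows called towards hippocampus was close to that of the genome. Among the 50000 strongest peaks of each library, none of the 7 tested windows of Nr3c1 was called. Of 17 tested at Nr3c2, none was called towards hippocampus and 3 towards frontal cortex, none of them among the 9. Over the genome that setting called 13704 windows towards hippocampus and 13842 towards frontal cortex, of 74697 tested. A wide peak can open neighbouring windows, and 2 of the 29 and 1 of the 9 windows of Nr3c2, and none of the 17 of Nr3c1, shared most of their peaks with a neighbour. These were the windows at 153.4 and 394.2 kb, whose neighbours had a peak in all 22 libraries, and that at 349.0 kb. The depth behind each presence or absence is unknown.

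**Figure D1:**
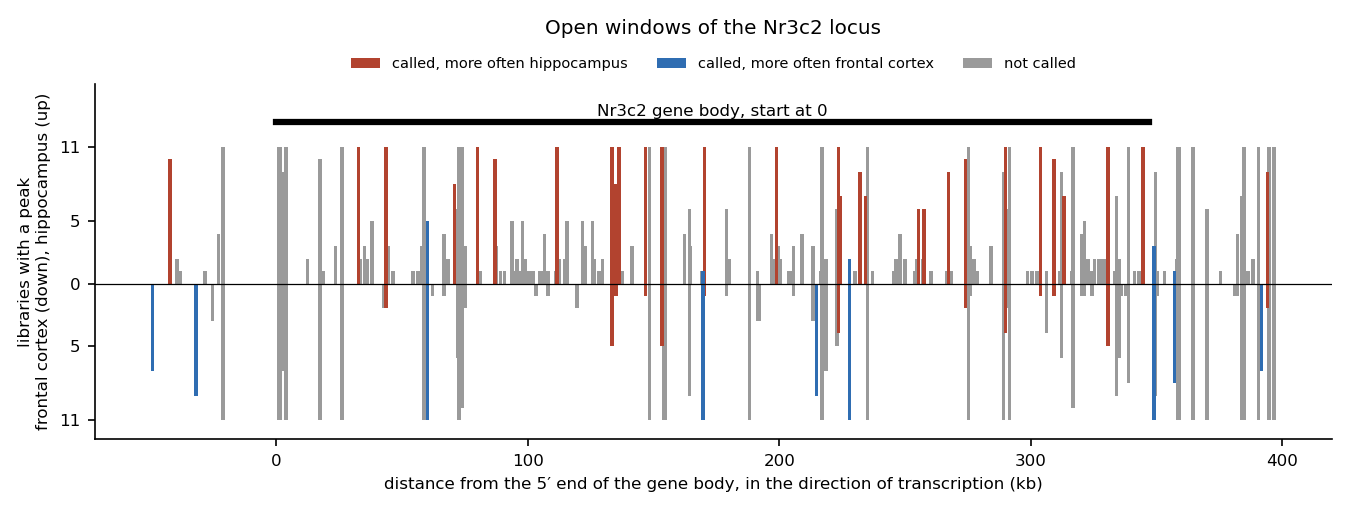
Number of libraries with a peak in each window of the Nr3c2 locus, hippocampus upwards and frontal cortex downwards (11 libraries each), against the distance from the 5′ end of the gene body in kb. Bars are drawn wider than the windows, red marks the 29 windows called towards hippocampus and blue the 9 called towards frontal cortex, and most red bars lie inside the gene body.

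The hippocampal elements of Nr3c2 were spread along the gene. Of the 29 windows, 27 lay in the gene body, and 15 had a peak in all 11 hippocampus libraries. The map of the Nr3c2 locus shows them from 42.2 kb before the 5′ end to 394.2 kb after it, with no single cluster. For 6 of the 123 tested windows the tissues did not overlap at all. These had a peak in 11 of 11 hippocampus and 0 of 11 frontal cortex libraries (Fisher's exact test, adjusted p = 4.32e-05 each). That pattern held for 4.22% of tested windows in the genome towards hippocampus and for 2.34% towards frontal cortex, so 6 of 123 was close to the share over the genome.

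The strongest of the 6 by deposited fold lay 198.9 kb into the gene (77096717 to 77097217), where the fold in hippocampus ran from 4.13 to 7.20 (median 4.93). All 11 hippocampus libraries, and no frontal cortex library, still had this peak when only peaks with a -log10 q of 5 or more were counted. The window 344.7 kb into the gene (77242526 to 77243026), close to the 3′ end of the body, behaved alike, with folds of 3.80 to 5.36 (median 4.46) and 11 of 11 hippocampus libraries past that limit. At 32.7 kb (76930567 to 76931067) the fold was 2.06 to 5.68 (median 3.85), and 9 of 11 hippocampus libraries passed that limit. At 111.6 kb (77009384 to 77009884) the fold was 2.25 to 5.75 (median 3.66), with 9 of 11 again. The windows at 80.0 kb (76977849 to 76978349) and 136.3 kb (77034152 to 77034652) were weak, with median folds of 2.61 and 2.81 and 2 of 11 hippocampus libraries each past that limit. None of these 6 windows was among the 50000 strongest peaks in any library.

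Frontal cortex elements of Nr3c2 were fewer, and no window had a peak in all 11 frontal cortex and 0 hippocampus libraries. At 169.6 kb (77067387 to 77067887) 1 of 11 hippocampus and 11 of 11 frontal cortex libraries had a peak (adjusted p = 0.000297, Fisher's exact test). The neighbouring window at 170.2 kb (77068024 to 77068524) showed the reverse, with 11 of 11 hippocampus libraries and 1 of 11 frontal cortex libraries (adjusted p = 0.000297, Fisher's exact test). Thus neighbouring windows less than 1 kb apart were called in opposite directions. Whether they hold separate elements was not tested. At 227.9 kb (77125776 to 77126276) the counts were 2 and 11, and at 349.0 kb (77246866 to 77247366), just past the 3′ end of the body, 3 and 11. At 214.8 kb (77112680 to 77113180) and 31.8 kb before the gene (76865984 to 76866484, in Gm10649) no hippocampus and 9 frontal cortex libraries had a peak. The remaining named windows, 49.1 kb before the gene (76848696 to 76849196, in Gm10649) and 391.7 kb after its start (77289531 to 77290031), had 0 and 7, with the second inside the neighbouring gene Arhgap10. Neither of these last windows remained called with the animal as the replicate block (exact sign test, adjusted p = 0.0601).

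The elements present in every library were mostly, but not all, strong. At Nr3c2, 22 of 199 windows (11.1%) had a peak in all 22 libraries, against 18.4% in the genome, and their median deposited fold was 6.07. The weakest of them, at 1.7 and 154.8 kb, had median folds of 2.59 and 2.61. The windows called towards hippocampus had a median fold of 3.18 and those called towards frontal cortex 3.57. Windows with a peak in only 1 library made up 25.6% at Nr3c2 and 20.6% in the genome. The highest median fold at the locus, 12.4, was 21.1 kb before the 5′ end (76876774 to 76877274, in Gm10649), with 7.28 to 13.1 in hippocampus (median 9.89) and 12.0 to 17.0 in frontal cortex (median 14.1). Next came a pair of adjacent windows 358.6 and 359.2 kb after the start (77256440 to 77257519), inside the neighbouring gene Arhgap10. Their median folds were 10.24 and 10.01.

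Nr3c1 lies on chromosome 18, minus strand, from 39410545 to 39519421 (GRCm38, 108.9 kb, 15 RefSeq transcripts), so that distances downstream run towards lower coordinates. Its frontal cortex elements lay upstream, at the start and along much of the body, from 29.8 kb before the 5′ end to 87.5 kb after it. Of the 12, 9 lay in the gene body and 3 in the 5′ flank. Its hippocampal elements lay from 77.0 to 134.2 kb after the 5′ end, 3 in the body and 2 in the 3′ flank. The 2 sets thus overlapped only between 77.0 and 87.5 kb, as the map of the Nr3c1 locus shows.

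**Figure D2:**
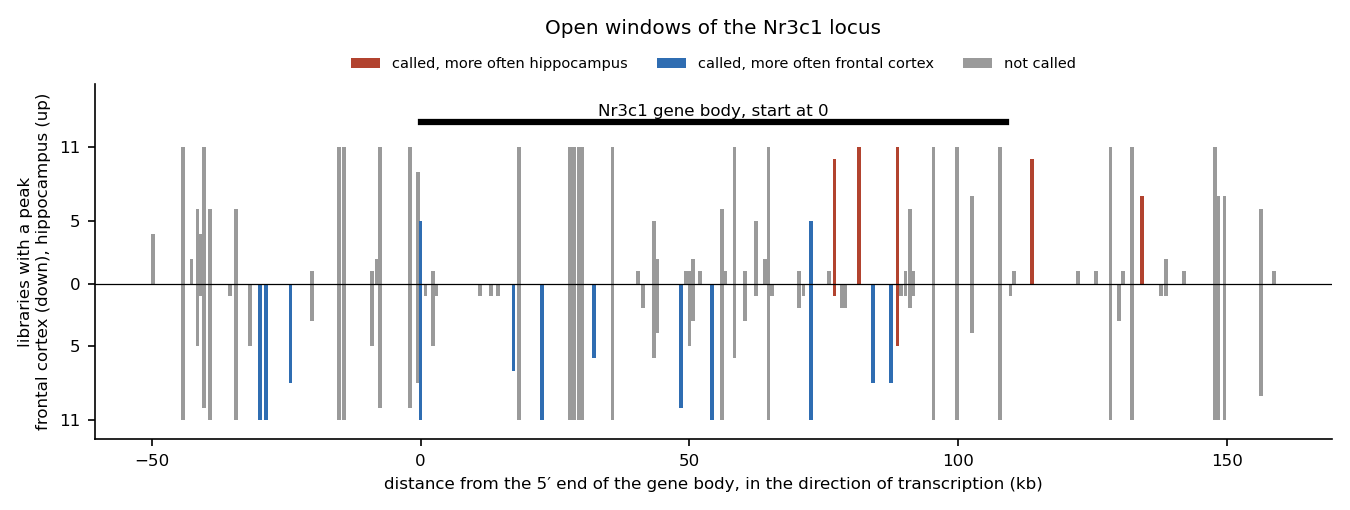
Number of libraries with a peak in each window of the Nr3c1 locus, hippocampus upwards and frontal cortex downwards (11 libraries each), against the distance from the 5′ end of the gene body in kb. Bars are drawn wider than the windows, and the 5 windows called towards hippocampus (red) stand at 77.0 kb and beyond, while the 12 called towards frontal cortex (blue) reach no further than 87.5 kb.

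In 4 of the 51 tested windows of Nr3c1 a peak was found in 0 of 11 hippocampus and 11 of 11 frontal cortex libraries (Fisher's exact test, adjusted p = 4.32e-05 each), a pattern of 2.34% of tested windows in the genome. A pair of them stood 28.8 and 29.8 kb before the 5′ end (39547995 to 39548495 and 39548921 to 39549421), inside the lncRNA gene Gm30909, with folds in frontal cortex of 3.23 to 6.71 (median 3.94) and 4.14 to 7.63 (median 4.85). The window at 22.6 kb (39496599 to 39497099) had folds of 3.11 to 6.00 (median 5.10), and that at 54.2 kb (39465005 to 39465505) of 2.50 to 4.57 (median 3.08). With only peaks of -log10 q of 5 or more, 11, 10, 10 and 5 of 11 frontal cortex libraries kept the peaks at -29.8, -28.8, 22.6 and 54.2 kb. At 48.5 kb (39470668 to 39471168) no hippocampus and 10 frontal cortex libraries had a peak, and 24.2 kb before the gene (39543385 to 39543885, in Gm30909) none and 8.

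The window at the annotated 5′ end of Nr3c1 (39519151 to 39519651) was called towards frontal cortex, with a peak in 5 of 11 hippocampus and 11 of 11 frontal cortex libraries (Fisher's exact test, adjusted p = 0.0406). With the animal as the replicate block it was not called (exact sign test, adjusted p = 0.0988). The next window upstream, 0.5 kb before the 5′ end (39519670 to 39520170), had a peak in 9 hippocampus and 8 frontal cortex libraries (adjusted p = 1, Fisher's exact test). These windows lie side by side, and a peak wider than a window can count in both. RefSeq lists 15 transcripts for Nr3c1, and which of their starts is used was not analysed here.

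Towards hippocampus, the window 81.6 kb after the 5′ end of Nr3c1 (39437525 to 39438025) had a peak in 11 of 11 hippocampus and 0 of 11 frontal cortex libraries, with folds of 1.92 to 4.93 (median 2.74), and in 3 of 11 hippocampus libraries its -log10 q was 5 or more. At 113.7 kb (39405510 to 39406010), in the 3′ flank, 10 and 0 libraries had a peak (adjusted p = 0.000297, Fisher's exact test). At 77.0 kb (39442141 to 39442641) the counts were 10 and 1, at 88.7 kb (39430469 to 39430969) 11 and 5, and at 134.2 kb (39384923 to 39385423) 7 and 0. The peak at 88.7 kb was the strongest of these, with folds of 3.92 to 7.98 in hippocampus (median 6.12) and 1.95 to 3.01 in the 5 frontal cortex libraries (median 2.47). All 11 hippocampus libraries and no frontal cortex library kept it with only peaks of -log10 q of 5 or more. The windows at 88.7 and 134.2 kb were not called with the animal as the replicate block (exact sign test, adjusted p = 0.0988 and 0.0601).

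**Figure D3:**
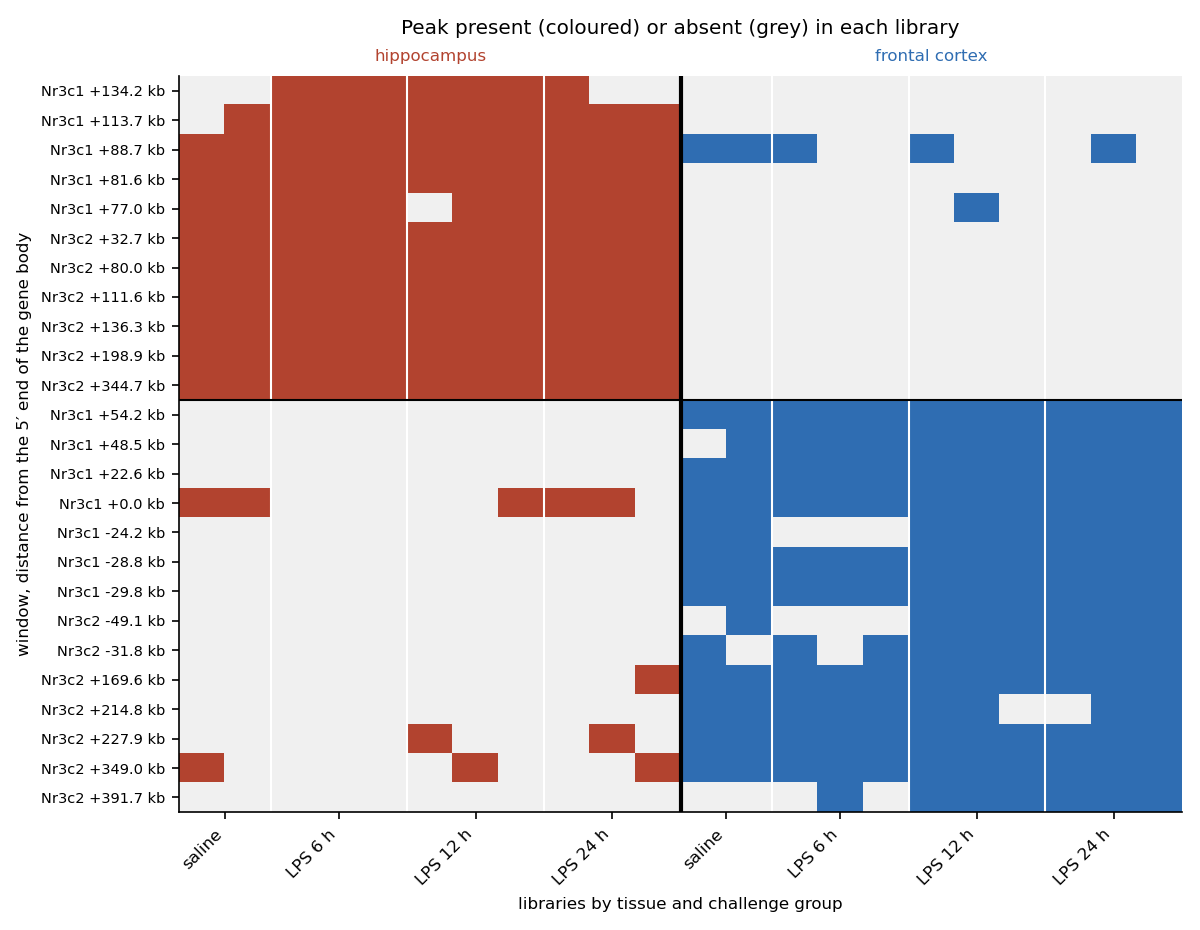
Presence (coloured) or absence (grey) of a peak in each of the 22 libraries, hippocampus left and frontal cortex right, for the named windows called between the tissues, labelled by gene and distance from the 5′ end of the gene body. The 6 hippocampal windows of Nr3c2 were present in all 11 hippocampus libraries and absent from all 11 frontal cortex libraries.

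Of the 92 windows of Nr3c1, 16 (17.4%) had a peak in all 22 libraries, with a median fold of 4.88. The windows called towards hippocampus had a median fold of 3.36 and those called towards frontal cortex 2.91. The highest folds were at 128.3 kb (39390902 to 39391402, median 9.33), at 107.8 kb near the 3′ end of the body (39411393 to 39411893, median 8.01) and 15.2 kb before the gene (39534328 to 39534828, median 7.88). The broadest open stretch of the locus was made of 4 windows in a row from 27.8 to 30.1 kb after the 5′ end (39489046 to 39491891, 2846 bp), all with a peak in all 22 libraries. Peaks there had a median width of 1990 bp, and the widest measured 2769 bp. At 30.1 kb the median fold was 4.88 in hippocampus and 4.87 in frontal cortex. The broad stretch lies downstream of the annotated 5′ end, whose own window was less constant. Whether any of the 15 transcripts starts in the broad stretch was not analysed here.

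The tissue differences were seen in each challenge group. Of the 29 hippocampal windows of Nr3c2, 26 had a peak in a larger number of hippocampus than frontal cortex libraries among saline animals, 29 at 6 h, 28 at 12 h and 25 at 24 h after LPS, and none had the reverse in any group. All hippocampus libraries and no frontal cortex library had the peak at 20, 17, 15 and 15 of the windows in the saline, 6 h, 12 h and 24 h groups. Of the 12 frontal cortex windows of Nr3c1, 11, 11, 12 and 12 had a peak in more frontal cortex than hippocampus libraries in those groups, and none the reverse. The windows were chosen on all these libraries together, so these counts describe them and test nothing. In bulk tissue, a larger share of cells of a type and a more open element in each cell cannot be told apart.

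When the windows of each locus were counted per library, Nr3c2 was higher and Nr3c1 lower in hippocampus. Nr3c2 had 66 to 93 windows with a peak in hippocampus libraries (median 84) and 43 to 67 in frontal cortex libraries (median 50). Relative to 100000 windows with a peak in the library, these were 26.2 to 36.3 (median 31.4) in hippocampus and 17.9 to 23.9 (median 20.8) in frontal cortex. The ranges did not overlap, and hippocampus was higher in 11 of 11 animals, with means of 31.6 ± 2.94 and 20.9 ± 1.57 (SD, n = 11 each). Hippocampus was also higher in 11 of 11 animals at Esr2, the estrogen receptor beta gene, and the share of all loci with such a pattern is not given here. Nr3c1 had 31 to 40 windows with a peak in hippocampus (median 36) and 40 to 50 in frontal cortex (median 44). Per 100000 windows the values were 12.5 to 15.1 (median 13.4) in hippocampus and 14.95 to 22.7 (median 18.0) in frontal cortex. Hippocampus was higher in 0 of 11 animals, with means of 13.6 ± 0.782 and 18.0 ± 1.98 (SD, n = 11 each), although the ranges overlapped at their ends.

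In a limma fit over 18227 gene loci (log2 of the value per 100000 windows plus 1, 8 groups, contrast averaged over the challenge groups), the difference of hippocampus minus frontal cortex was 0.58 for Nr3c2 (SE 0.0416, adjusted p = 3.89e-14) and -0.37 for Nr3c1 (SE 0.0453, adjusted p = 1.69e-08). Of all loci 18.5% were called higher and 34.7% lower in hippocampus, so a call alone is no rare event here. Without division by the library's total, 4832 loci were higher and 1865 lower, against 3369 and 6321 with it. The median over all loci was -0.06 with division and 0.05 without it. Relative to that median, Nr3c2 stood at 0.64 and 0.66 and Nr3c1 at -0.32 and -0.32 with and without division. Counting only the 50000 strongest peaks of each library, the difference for Nr3c2 turned to -0.40 (limma, adjusted p = 0.0175) and that for Nr3c1 was -0.16 (limma, adjusted p = 0.153). In that count Nr3c2 had 7 to 17 windows in hippocampus (median 9) and 9 to 15 in frontal cortex (median 13).

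The relation of the genes to each other within a library does not use the library's total. Per 100 kb of locus (446.9 kb for Nr3c2 and 208.9 kb for Nr3c1), hippocampus libraries had a median of 18.8 windows with a peak at Nr3c2 and 17.2 at Nr3c1. Frontal cortex libraries had a median of 11.2 at Nr3c2 and 21.1 at Nr3c1. The ratio of Nr3c2 to Nr3c1 per kb was 0.959 to 1.36 in the 11 hippocampus libraries (median 1.09) and 0.428 to 0.626 in the 11 frontal cortex libraries (median 0.561). The ranges of this ratio did not overlap, and the share of other gene pairs with such a pattern is not given here. With only peaks of -log10 q of 5 or more the ranges were 0.727 to 1.14 in hippocampus and 0.513 to 0.729 in frontal cortex, and overlapped at their ends. Among the 50000 strongest peaks the medians stood the other way, with 0.327 to 1.32 in hippocampus (median 0.467) and 0.467 to 0.818 in frontal cortex (median 0.675).

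**Figure D4:**
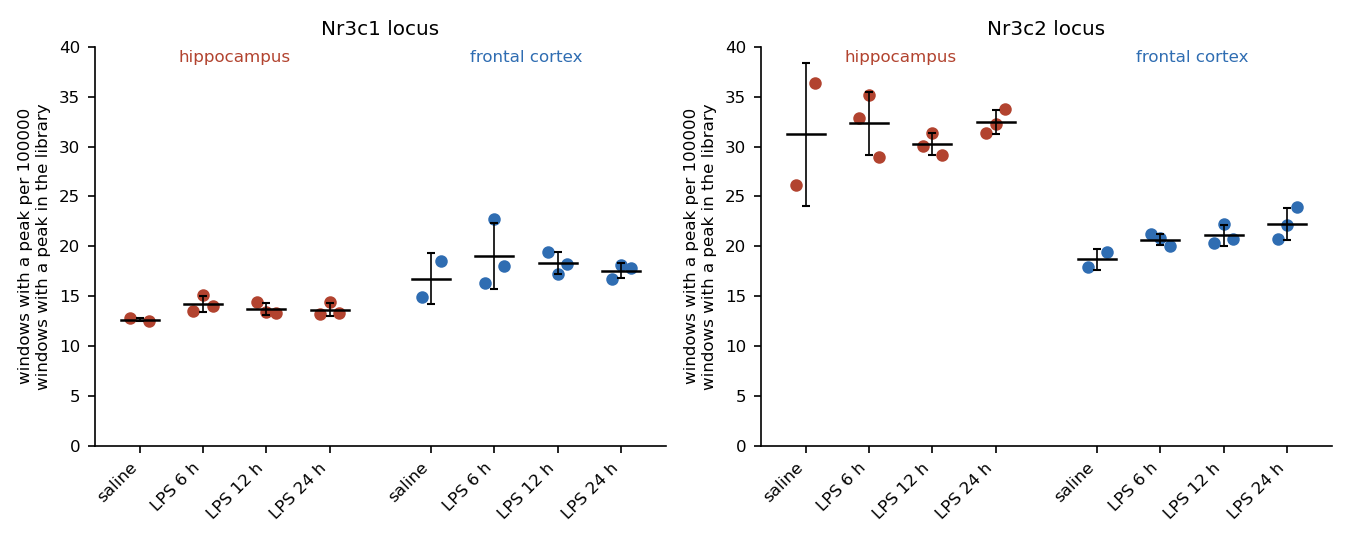
Windows with a peak per 100000 windows with a peak in the library, for the Nr3c1 locus (left) and the Nr3c2 locus (right), in hippocampus (red) and frontal cortex (blue) by challenge group. Points are libraries, horizontal lines are group means and bars are the SD (n = 2 for saline, 3 for each LPS time), and at Nr3c2 all hippocampus libraries stand above all frontal cortex libraries.

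After LPS, no window of either gene differed from saline by the test. In hippocampus, Fisher's exact test of 9 LPS against 2 saline libraries called 0 of 25 tested windows of Nr3c1 and 0 of 92 of Nr3c2, and 0% of 200524 windows in the genome. In frontal cortex it called 0 of 30 and 0 of 38, and 0% of 181667. This design allows no p below 0.0182 for a single window, which cannot pass an adjustment over the genome. Without adjustment, p was under 0.05 in 0 windows of Nr3c1 and 1 of Nr3c2 in hippocampus, against 0.912% of windows in the genome, and in 0 windows of either gene in frontal cortex, against 0.841%. The 1 window lay 327.2 kb into Nr3c2 (77225029 to 77225529), with a peak in 0 of 9 LPS and 2 of 2 saline hippocampus libraries and in no frontal cortex library (Fisher's exact test, unadjusted p = 0.0182, adjusted p = 1). Its peaks were weak, with folds of 2.29 and 3.16 in the saline libraries.

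At single times, few windows had a peak in every LPS library and no saline library, or the reverse. In hippocampus such windows numbered 3 of 57 at Nr3c1 and 6 of 146 at Nr3c2 at 6 h (5.26% and 4.11%, against 2.03% in the genome). At 12 h they numbered 2 of 51 and 7 of 152 (3.92% and 4.61%, against 2.68%), and at 24 h 1 of 53 and 4 of 151 (1.89% and 2.65%, against 2.73%). In frontal cortex they numbered 3 of 64 and 2 of 71 at 6 h (4.69% and 2.82%, against 1.83%), 1 of 60 and 2 of 66 at 12 h (1.67% and 3.03%, against 2.18%), and 1 of 61 and 5 of 79 at 24 h (1.64% and 6.33%, against 3.85%). Groups of 3 against 2 were not tested, and counts this small differ from the genome's share by a few windows.

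At Nr3c2 in hippocampus, 4 of the 6 windows at 6 h, 6 of the 7 at 12 h and 2 of the 4 at 24 h were open in saline only, among them those at 57.7 and 199.5 kb (76955510 to 76956010 and 77097303 to 77097803), which had a peak in 1 of 9 LPS and 2 of 2 saline libraries each. Over the genome, 1.51% of windows were open in saline only and 0.517% after LPS only at 6 h in hippocampus, 1.39% and 1.29% at 12 h, and 1.61% and 1.12% at 24 h. In frontal cortex, 1 of the 2 at 6 h, both at 12 h and all 5 at 24 h were open after LPS only, the 5 being at 133.5, 153.4, 218.6, 222.9 and 391.7 kb. In the genome 3.03% of windows were open after LPS only and 0.827% in saline only in frontal cortex at 24 h, so the first kind was the more common there. The window at 153.4 kb shared 15 of its 16 peaks, over both tissues, with the next window at 154.0 kb, which had a peak in all 22 libraries, saline included. It is thus the edge of an element open in every library. The difference between the tissues was not tested. The window at 218.6 kb (77116388 to 77116888) had a peak in 7 of 9 LPS and 0 of 2 saline frontal cortex libraries, as did that at 73.2 kb (76971079 to 76971579) and that at 391.7 kb in Arhgap10 (Fisher's exact test, unadjusted p = 0.109 each).

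At Nr3c1, the window 134.2 kb after the 5′ end was open in 0 of 2 saline, 3 of 3 LPS 6 h, 3 of 3 LPS 12 h and 1 of 3 LPS 24 h hippocampus libraries. The window at 148.4 kb (39370772 to 39371272), in Arhgap26 and the lncRNA gene Gm15337, was open in 0, 2, 2 and 3 hippocampus libraries of those groups. All 18 of its peaks over both tissues also opened the next window at 147.8 kb, which had a peak in all 22 libraries, so here the extent of a wide peak differed and not the presence of an element. In both windows 7 of 9 LPS and 0 of 2 saline libraries had a peak (Fisher's exact test, unadjusted p = 0.109). The window at the 5′ end was open in 3 of 9 LPS and 2 of 2 saline hippocampus libraries (unadjusted p = 0.182, Fisher's exact test). In frontal cortex, the window 0.5 kb before the 5′ end was open in 8 of 9 LPS and 0 of 2 saline libraries (Fisher's exact test, unadjusted p = 0.0545), the lowest p of the locus. Of its 17 peaks over both tissues, 5 also opened the neighbouring window at the 5′ end, which had a peak in 2 of 2 saline frontal cortex libraries. Part of this gain may thus be the extent of a wide peak. The window at 58.4 kb (39460765 to 39461265) was open in 6 of 9 LPS and 0 of 2 saline libraries, and that at 88.7 kb in 3 of 9 and 2 of 2 (unadjusted p = 0.182 each, Fisher's exact test). The frontal cortex window 24.2 kb before the 5′ end was open in 2 of 2 saline, 0 of 3 LPS 6 h, 3 of 3 LPS 12 h and 3 of 3 LPS 24 h libraries, and this pattern over time was not tested.

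Over whole loci, neither gene differed between LPS and saline by the test. The widest difference was that of Nr3c2 in frontal cortex. There the windows with a peak per 100000 were 17.9 and 19.4 in saline, 21.2, 20.8 and 20.0 at 6 h, 20.3, 22.3 and 20.7 at 12 h, and 20.8, 22.1 and 23.9 at 24 h after LPS. All 9 LPS libraries lay above both saline libraries, and the share of all loci with such a pattern is not given here. Plain counts overlapped, with 48 and 43 windows with a peak in saline and 43 to 67 after LPS. The difference at 24 h was 0.24 (limma, SE 0.0877, unadjusted p = 0.00970, adjusted p = 0.198), at 12 h 0.17 (adjusted p = 0.838, limma) and at 6 h 0.14 (adjusted p = 0.903, limma). Without division by the library's total these differences were 0.37, 0.11 and 0.07. Relative to the median over all loci in each scaling, they were 0.32, 0.19 and 0.15 with division and 0.33, 0.19 and 0.16 without it. In hippocampus, Nr3c2 had 26.2 and 36.3 in saline, 32.9, 35.2 and 28.9 at 6 h, 30.1, 31.4 and 29.2 at 12 h, and 31.4, 32.3 and 33.8 at 24 h. The saline libraries there were farther apart than those of any other group at this locus, and all LPS libraries lay between them.

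Nr3c1 had 12.8 and 12.5 in hippocampus in saline, 13.5, 15.1 and 14.0 at 6 h, 14.5, 13.4 and 13.3 at 12 h, and 13.2, 14.4 and 13.3 at 24 h after LPS. All 9 LPS libraries lay above both saline libraries, by differences of 0.16, 0.11 and 0.10 at 6, 12 and 24 h (limma, SE 0.0955, adjusted p = 1, 0.863 and 0.842). Plain counts overlapped, with 39 and 31 windows with a peak in saline and 32 to 40 after LPS. Without division by the library's total the differences were 0.03, 0.07 and 0.03 at those times, while the median over all loci was -0.141, -0.0759 and -0.105. Relative to the median in each scaling, Nr3c1 stood at 0.17, 0.14 and 0.13 with division and at 0.17, 0.15 and 0.14 without it. In frontal cortex it had 14.95 and 18.5 in saline, 16.3, 22.7 and 18.0 at 6 h, 19.4, 17.2 and 18.2 at 12 h, and 16.7, 18.1 and 17.9 at 24 h, with overlap at each time. The shares of loci called by limma were 0% at 6 h, 0.00549% at 12 h and 0.00549% at 24 h in hippocampus, and 0.00549% at 6 h, 0% at 12 h and 0.34% at 24 h in frontal cortex. The effect of LPS did not differ between the tissues by the test for either gene at any time (limma interaction, hippocampus minus frontal cortex, from -0.20 to -0.08 for Nr3c2 and from -0.02 to 0.03 for Nr3c1, lowest adjusted p = 0.873).

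**Figure D5:**
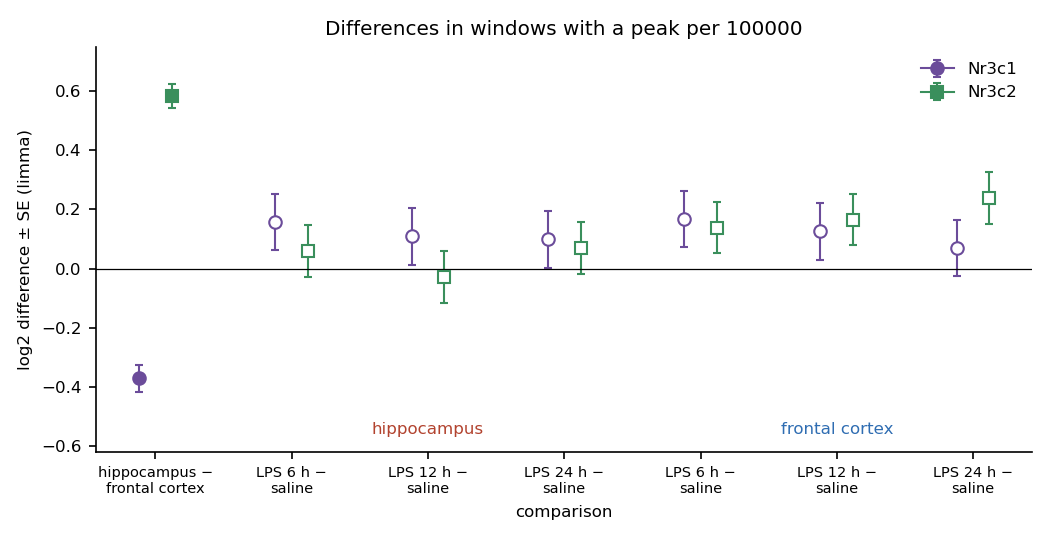
Log2 differences from the limma fit with their SE for Nr3c1 (circles) and Nr3c2 (squares), for hippocampus minus frontal cortex and for LPS minus saline at 6, 12 and 24 h in each tissue. Filled symbols passed the adjusted threshold of 0.05, which was the case for the tissue difference of both genes (-0.37 and 0.58) and for no LPS difference.

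The authors' deposited tables of differential regions, made with csaw, held 5 regions in the 2 loci, out of 23 to 5540 regions per comparison. The FDR is read from a number in those tables taken to be its -log10 times a constant, which puts every listed region at or below 0.05, and the tables do not name that scale. All 5 were listed as higher after LPS. In hippocampus at 12 h, the authors' deposited table listed 39419401 to 39419810 in Nr3c1 (FDR 0.0401), where all 22 libraries had a peak and the peak fold was 5.24, 6.04 and 5.10 after LPS and 5.59 and 5.40 in saline. Of the 3084 regions of that authors' deposited table, 1211 were higher and 1873 lower, so the region in Nr3c1 ran against the more common direction. In frontal cortex at 24 h, the authors' deposited table listed 76970701 to 76970860 in Nr3c2 (FDR 0.0454), where the peak fold was 5.50, 4.31 and 6.51 after LPS and 3.47 and 2.70 in saline. It also listed 77204401 to 77204410 in Nr3c2 (FDR 0.0445), a region of 10 bp where 3 of 3 LPS libraries (folds of 3.52, 1.96 and 2.80) and 1 of 2 saline libraries (2.21) had a peak. Both regions carry the letter that csaw uses for introns, as does the region in Nr3c1.

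The other regions of the authors' deposited table for frontal cortex at 24 h lay in introns of Arhgap10, past the 3′ end of Nr3c2. At 77281651 to 77281910 (FDR 0.0301) the peak fold was 7.58, 7.88 and 7.36 after LPS and 6.68 and 5.34 in saline. At 77289701 to 77289860 (FDR 0.0331) a peak was found in 3 of 3 LPS and 0 of 2 saline libraries, with folds of 2.33, 2.16 and 3.20. This is the window at 391.7 kb, which had no peak in any hippocampus library. Of all 5540 regions listed there, 4986 were higher after LPS, so the direction of these 4 was the common one. The authors' deposited tables held no region of either locus for hippocampus at 6 or 24 h or for frontal cortex at 6 or 12 h.

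Among other steroid receptor genes, Pgr, the progesterone receptor gene, had 8 windows called towards hippocampus and 7 towards frontal cortex, of 26 tested. Esr1, the estrogen receptor alpha gene, had 14 and 6 of 70, and Esr2, the estrogen receptor beta gene, 4 and 1 of 19. Over the genome 18.3% and 12.2% of tested windows were called in these directions. Over the whole locus Pgr was lower in hippocampus by the fit (-0.17, limma, adjusted p = 0.00673), but not without division by the library's total (-0.08, limma, adjusted p = 0.427). The differences of Esr1 (0.01) and Esr2 (0.12) did not pass the test (limma, adjusted p = 0.872 and 0.0676), and without the division Esr2 did (0.24, limma, adjusted p = 0.0168). Relative to the median over all loci, Pgr stood at -0.12 and -0.13 with and without division. Esr1 stood at 0.06 and 0.07, and Esr2 at 0.18 and 0.19. The differences of Nr3c1 and Nr3c2 were larger in size than those of these 3 genes.

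Genes whose products fold, activate, export or assist the receptors gave a mixed picture. Of 20 such loci, 3 were higher and 11 lower in hippocampus, with a median of -0.11, against -0.06 over all loci, of which 18.5% were higher and 34.7% lower. Without division by the library's total, 5 were higher and 0 lower, so only the higher ones kept their call. The median over all loci was then 0.05. Ppid (0.32, adjusted p = 3.5e-05) and Fkbp5 (0.27, adjusted p = 0.000491), both co-chaperones of the Hsp90 complex, were higher in hippocampus in either scaling by limma. Hsd11b1, which regenerates active glucocorticoid inside cells, was at 0.12 (limma, adjusted p = 0.0131). Hsp90ab1, the chaperone itself, was at -0.21 (limma, adjusted p = 3.81e-05) and Abcb1a, an export pump of the blood-brain barrier, at -0.24 (limma, adjusted p = 0.000854), and neither passed without the division. Relative to the median in each scaling, Hsp90ab1 stood at -0.16 and -0.16 and Abcb1a at -0.19 and -0.22 with and without division. On that scale Ppid stood at 0.38 and 0.41 and Fkbp5 at 0.33 and 0.35. None of the 20 loci was called in any of the 6 comparisons of LPS with saline.

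The genes whose share of windows with a peak followed Nr3c2 most closely over the 22 libraries were Lsamp (Pearson r = 0.959), Epha6 (0.955) and Zbtb20 (0.947), of 13950 genes compared. Those closest to Nr3c1 were Ntm (0.935), Pak7 (0.924) and Slc2a12 (0.922). These values are descriptions, since the points share the tissue difference and each library's peak calling. Zbtb20, a transcription factor gene of hippocampal neurons, had a mean of 136.7 windows with a peak in hippocampus and 68.6 in frontal cortex.

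Across the series, libraries held 243422 to 352343 peaks and 204543 to 307120 distinct peak intervals, and read depth is unknown from peak lists. Marker loci of the tissues mostly followed their labels. Of 6 hippocampus markers, 4 were higher (Zbtb20 at 0.89, Prox1 at 0.82) and 1 lower, and their summed value per 100000 windows was 98.0 to 123 in hippocampus and 65.7 to 75.2 in frontal cortex. Of 6 frontal cortex markers, 4 were lower in hippocampus (Rorb at -0.79, Cux2 at -0.38) and 1 higher, with sums of 59.8 to 68.8 and 84.5 to 92.8. Lists for other cell types can be read against the 18.5% of all loci called higher and 34.7% called lower. Of 4 loci each, oligodendrocyte markers had 0 higher and 2 lower (sums of 39.2 to 43.9 and 44.1 to 52.9), microglia markers 1 and 2 (37.5 to 44.0 and 40.7 to 45.6), astrocyte markers 1 and 0 (32.2 to 39.5 and 30.6 to 33.6), endothelial markers 2 and 0 (27.5 to 36.0 and 26.7 to 30.0) and striatal neuron markers 0 and 2 (28.2 to 32.9 and 30.3 to 39.1). Of the 3 blood markers tested, 2 were higher and 1 lower. Without division by the library's total, the counts higher and lower were 5 and 0 for hippocampus, 1 and 3 for frontal cortex, 0 and 1 for oligodendrocyte, 1 and 0 for microglia, 4 and 0 for astrocyte, 2 and 0 for endothelial, 0 and 1 for striatal neuron and 2 and 0 for blood markers. No locus of these lists was at 0 in any library except 1 of the blood list in hippocampus. The part of cell composition in the tissue differences of Nr3c1 and Nr3c2 was not tested.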

How the data were processed

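Per the labels' protocols, OMNI-ATAC-seq was run on 20 to 30 mg of frozen tissue and read as paired ends of 50 bp. Per the submitters' processing notes, the tools were MACS2 2.2.7.1, Bowtie2 2.4.4, FastQC 0.11.9 and Trim Galore 0.6.7, with GRCm38 (mm10). No source used here says whether reads were shifted for the transposase. The authors deposited 1 peak list per library, in which each peak has -log10 q and -log10 p values, a fold ratio to background and a score. The lowest deposited -log10 p was near 2 in every library, and the lists hold weak peaks. In the authors' deposited differential tables each region has a direction and a number whose scale is not named. It was taken as a scaled -log10 of the FDR, since all values then fall at or below 0.05. Without read counts, no interval that needs depth is given.

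Summits were merged into windows reaching 250 bp to either side, kept in order of score relative to the library's total, without overlap. A window counted as open where a peak overlapped at least 50% of the shorter of the pair. A peak wider than a window can open several. Gene bodies came from RefSeq (GRCm38), the strand of Nr3c1 from the authors' deposited labels. Exons were not used here. Windows were compared by Fisher's exact test, and loci (body and 50 kb either side, 10 or more windows) by limma with a mean-variance trend, with a pseudocount of 1. Differences are on the log2 scale of the value plus that pseudocount. The tissues are paired by animal, since the labels name 1 animal for each pair, and the consensus correlation within animals was 0.066. Libraries of 1 tissue come from separate animals. The limma p-values use the spread between libraries within the 8 groups, whereas Fisher's exact test uses counts of presence alone. The pairing enters only where the animal is named as the replicate block.

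The members and gene lists were chosen with earlier results of these data known. Windows were named by a rule: the window nearest the gene start, up to 6 called per direction with the lowest p, the 3 with the highest median fold, up to 3 per tissue with the widest difference in share between LPS and saline libraries, and all deposited differential regions. The window at the RefSeq promoter, windows that share peaks, the weakest open in every library, the window at 170.2 kb and those named as gained at 24 h were added after their values were seen, as was the ratio of the genes. For single times no test was run. Alternatives were stricter peaks, 50000 peaks per library, other overlaps, flanks of 10 kb or none, other pseudocounts, no division, the animal as a block and leaving out each animal. The tests were checked on simulated data. Values of some listed genes are not reported here. The software was R 4.3.3 with limma 3.58.1 and Python 3.11.15 with matplotlib 3.10.9, numba 0.67.0, pandas 2.3.3, scipy 1.17.1 and numpy 2.4.6.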

Additional observations from a re-analysis of the deposited data

How the results depend on the processing

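The counts of called windows depended on the threshold and the peak set, and the larger of the pair of directions at each gene stayed the larger except with the 50000 strongest peaks per library. Towards hippocampus, Nr3c1 had 5 called windows, 3 in the gene body alone, 3 at an adjusted p under 0.01, 3 with -log10 q of 5 or more, 3 with the animal as the replicate block (exact sign test) and 0 with the 50000 strongest peaks. Towards frontal cortex it had 12, and 0 with the 50000 strongest peaks. Towards hippocampus, Nr3c2 had 29, with 17, 15, 17 and 0 at the stricter threshold, at the stricter q, under the replicate block and with the 50000 strongest peaks. Towards frontal cortex it had 9, with 5 within 10 kb, 4 in the body, and 5, 5, 5 and 3 in those same settings, the last 3 being other windows. Over the genome, the stricter threshold called 42123 windows towards hippocampus and 26894 towards frontal cortex, of 327299 tested. The stricter q called 42248 and 32653 of 214496 tested there, with 29 windows tested at Nr3c1 and 56 at Nr3c2. Leaving out each animal gave 4 to 5 and 9 to 11 windows at Nr3c1 and 23 to 27 and 7 to 9 at Nr3c2. The locus difference of Nr3c2 (0.58) reversed to -0.40 with the 50000 strongest peaks, and that of Nr3c1 (-0.37) lost its call there (-0.16). The cause was not tested. With the animal as the replicate block the differences were 0.57 and -0.37, and leaving out each animal gave 0.54 to 0.63 and -0.41 to -0.33. No LPS call appeared at either gene under any setting run. Leaving out either saline animal left no p under 0.1 possible in single windows. Of 25 named windows called between tissues, 14 kept their call with the stricter q, 20 under the replicate block, 24 with any overlap, 25 by summit position and 0 with the 50000 strongest peaks. Depth is unknown, so the absence of a peak from a list does not show closed chromatin.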

Other observations

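The windows of each locus with a peak in all 22 libraries included ones that lie in genes other than the receptors. At Nr3c2, 7 of these 22 windows lay in the 3′ flank and 1 in the 5′ flank, and 16 of the 22 reached the 50000 strongest peaks of at least 1 library. At Nr3c1, 3 of 16 lay in each flank, and 11 of the 16 reached the 50000 strongest peaks of at least 1 library. Of the windows called towards hippocampus, 2 of 29 at Nr3c2 and 0 of 5 at Nr3c1 did so, and of those called towards frontal cortex 0 of 9 and 1 of 12. A peak of -log10 q of 5 or more was found in at least 1 library at 27 of the 29 and 5 of the 5, and at all 9 and all 12.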
